A study of Homo sapiens with 2 samples.

Results

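Genes of glucose metabolism and of the response to low oxygen were examined in L-428 cells, an established Hodgkin lymphoma (HL) cell line, with and without knock-down of PRAME, a tumor antigen that represses retinoic acid signaling. The list held 44 genes chosen by name: enzymes of glycolysis, glucose and lactate transporters, glycolysis regulators, and genes of glycogen metabolism, the pentose phosphate pathway and the hypoxia response. Probe sets whose annotation gave exactly 1 of these symbols were found for 42 of the 44 genes (89 probe sets), out of 19775 genes in all. SLC16A1 and SLC16A3, which encode lactate transporters, had no such probe set, so that their signals were not analysed here. SLC16A3 is counted only among the promoter windows below. Each gene was represented by its probe set with the highest mean log2 signal.

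The control cells carried the empty vector pcDNA6.2-GW/EmGFP-miR-neg and the knock-down cells the vector pcDNA6.2-GW/EmGFP-miR-PRAME, which encodes an artificial microRNA against PRAME together with a green fluorescent protein. Both were stable transfectants selected with blasticidin, with no drug or retinoic acid treatment named for these RNAs, and 1 Affymetrix array was hybridized per condition. Whether the transfectants were clones or pools is not given in the sources used here. The general text of the series names the line L-540 and an older array type, whereas the sample labels name L-428 and the 54675 probe sets are those of HG_U133PLUS2.0.

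Glycolysis splits glucose into pyruvate, which lactate dehydrogenase can reduce to lactate. Glycogen stores glucose units that phosphorylase releases, and the pentose phosphate pathway branches off glucose 6-phosphate to make NADPH and ribose. When oxygen is low, the transcription factor HIF-1 is stabilized and turns on glucose transporters, most glycolytic enzymes and genes such as VEGFA and BNIP3.

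The values are MAS5 signals, which the authors scaled to a trimmed mean of 500.1 on both arrays. A log2 ratio is given as knock-down over control cells after subtraction of 0.045, the median of the 27307 probe sets kept by a filter at the median mean signal (97.7). Of the 42 genes, 40 passed this filter, as did 11794 genes in all, which are called the measured genes. With 1 array per condition there is no replicate error, so no test was made, and differences are set against fixed sizes of 1.5-fold and 2-fold and against all measured genes. The array was made from bulk RNA, so that a change in all cells and a change in some of the cells cannot be told apart. Different kept probe sets of a gene deviated from each other by an SD of 0.332 (log2 scale, pooled over 5840 genes) and of 0.266 over the 20 genes of the list with several kept probe sets.

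The signal of PRAME itself was 2115 with the control vector and 1251 after knock-down. All 6 markers of Hodgkin and Reed-Sternberg cells were above the filter, with a summed signal of 16761 and 16795. Singly they differed in direction, and FUT4 was more than 1.5-fold lower, with signals of 1177 and 782. TNFRSF8, which encodes CD30, had 1893 and 1667, CCL17 6090 and 5537 and PAX5 232 and 218. IRF4 had 4633 and 5703 and TRAF1 2736 and 2887. None of 3 T cell markers (summed signal 160 and 218) and of 2 markers of monocytes and macrophages (74.7 and 76.4) was above the filter, and 1 of 3 epithelial markers was (187 and 205). All 3 fibroblast markers were above it, with a summed signal of 1446 and 1176. They differed in direction, with signals of 1199 and 790 for COL1A1, 53.4 and 184 for COL1A2 and 194 and 202 for DCN, and their part in the results was not tested.

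Most genes of the list differed little between control and PRAME knock-down cells. Of the 40 measured genes, 36 differed by less than 1.5-fold, 18 had a log2 ratio below 0 and 22 above 0. The median was 0.055, beside -0.007 over all 11794 measured genes, of which 6012 lay below 0 and 5782 above 0. The glycogen phosphorylase PYGB and the phosphofructokinase PFKM were at least 1.5-fold lower, and the glucose transporter SLC2A1 and the aldolase ALDOC at least 1.5-fold higher. Of all measured genes, 5.42% were lower and 7.54% higher by this size, so that 2 lower and 2 higher genes of 40 are close to the background. At 2-fold, 1 gene of the list was lower and none was higher, beside 0.729% and 1.73% of all measured genes. Among the 29 genes of the list with a mean signal of at least 1000, 1 was lower (PFKM) and none higher by 1.5-fold, whereas 4.55% and 1.76% of all 5167 measured genes of such signal were.

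**Figure D1:**
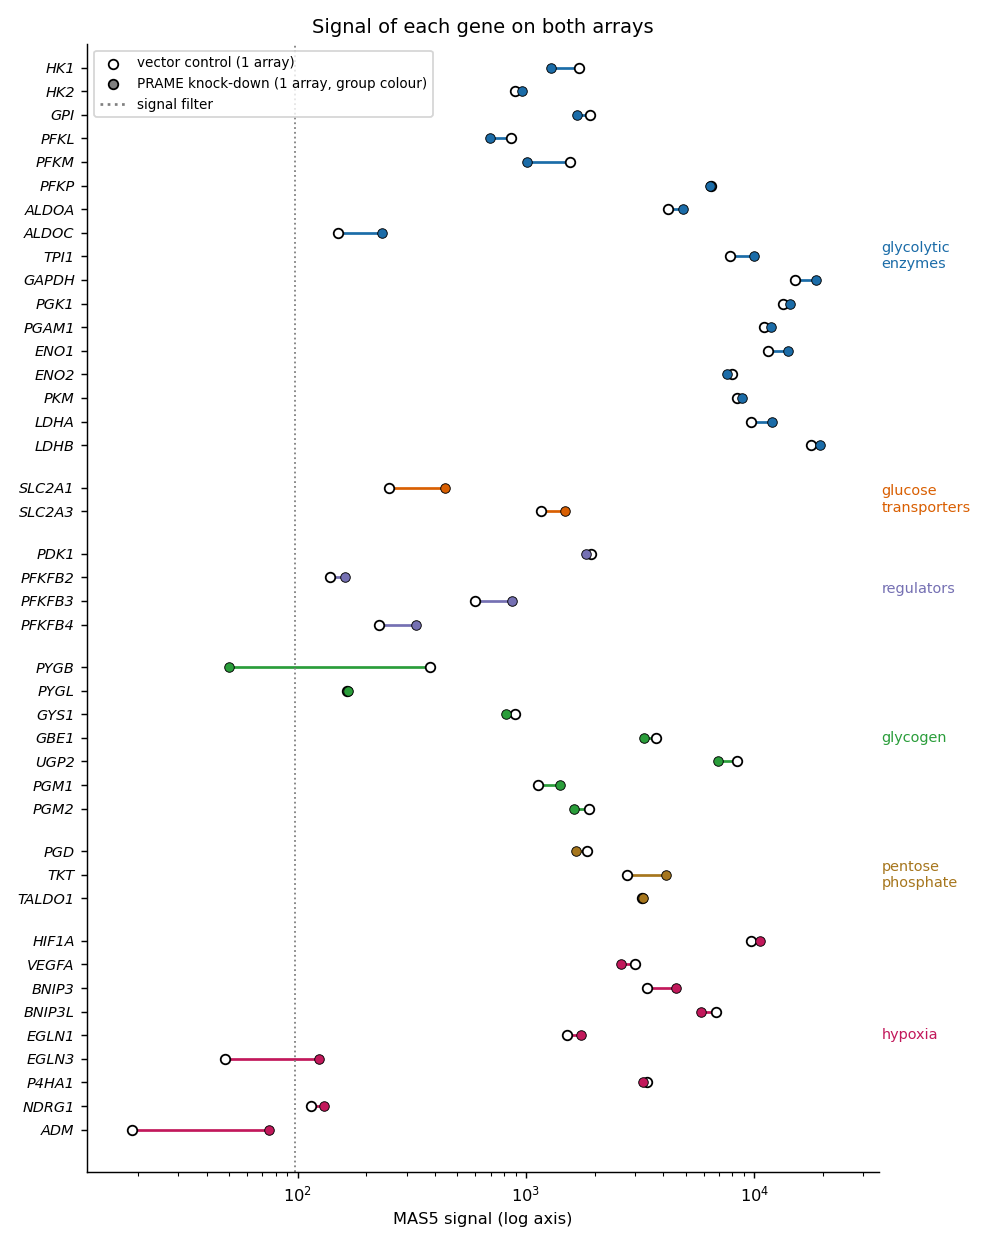
MAS5 signal (log axis) of the 42 genes in vector control (white) and PRAME knock-down cells (colored by group), 1 array each, with the signal filter of 97.7 as a dotted line that applies to the mean of both arrays. PYGB has the longest line, from 381 to 49.9, whereas HK2, PGK1, PGAM1 and PYGL have nearly equal signals on both arrays.

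PYGB, the brain form of glycogen phosphorylase, had a signal of 381 with the control vector and 49.9 after knock-down for 201481_s_at. The log2 ratio was -2.98, which is 7.87-fold lower, and only 1 of the 11794 measured genes had a lower value. The signal in the knock-down cells was below the filter, so that the size is not well determined, and with an offset of 64 added to both signals the log2 ratio was -2.005. PYGB had a mean signal under 200, where 28.8% of measured genes were past 1.5-fold in either direction and the SD of the log2 ratios was 0.530. Its rank covers only genes above the filter. Without a kept probe set, 749 of 7981 genes were at least 2-fold lower and 1924 higher, with log2 ratios from -5.161 to 6.199. The second PYGB probe set, 243238_at, was below the filter and had the opposite direction, with signals of 50.9 and 93.8 (log2 ratio 0.84). PYGL, the liver form of the same enzyme, was nearly equal with 165 and 167 (log2 ratio -0.03).

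PYGB lies on chromosome 20, where the median log2 ratio of 327 measured genes was -0.17. The 8 measured genes nearest to it in gene order, 4 on each side, had log2 ratios from -0.51 to 0.63 with a median of -0.06. Both direct neighbours were lower in the knock-down cells, ENTPD6 with signals of 554 and 401 and ABHD12 with 1012 and 781, as was GINS1 with 3722 and 2756. None of these neighbours came close to the log2 ratio of PYGB. Whether the position has a part in the result was not tested.

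The 42 genes lie on 17 chromosomes. No gene of the list lies on chromosome 18, and the chromosomes of PFKM, SLC2A1 and ALDOC had medians between -0.025 and 0.076 over their measured genes.

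The 300 bases around the transcription start of the genes past 1.5-fold with a single start window in RefSeq are shown together with those of PGK1, a textbook target of HIF-1 whose signal was nearly equal. They run from 250 bases before to 50 bases after the start and are read on the strand of the gene (GRCh38.p14). Capitals mark the hypoxia response core, searched as ACGTG and GCGTG on both strands, so that CACGT and CACGC are the same motifs on the other strand. A CACGTG holds ACGTG on both strands and counts as 2 matches.
PYGB (chr20:25247835-25248134, + strand): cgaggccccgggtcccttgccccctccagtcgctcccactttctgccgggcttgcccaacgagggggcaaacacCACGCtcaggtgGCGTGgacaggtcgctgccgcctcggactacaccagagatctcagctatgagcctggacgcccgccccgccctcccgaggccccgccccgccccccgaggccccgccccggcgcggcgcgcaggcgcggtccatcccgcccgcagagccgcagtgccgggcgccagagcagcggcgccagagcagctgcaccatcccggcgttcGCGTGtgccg
SLC2A1 (chr1:42958819-42959118, - strand): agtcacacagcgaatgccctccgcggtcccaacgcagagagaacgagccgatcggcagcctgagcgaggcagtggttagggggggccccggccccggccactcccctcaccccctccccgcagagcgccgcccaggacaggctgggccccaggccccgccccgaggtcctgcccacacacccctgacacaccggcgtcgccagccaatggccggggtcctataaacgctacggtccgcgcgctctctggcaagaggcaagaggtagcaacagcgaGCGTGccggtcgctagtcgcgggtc
ALDOC (chr17:28576846-28577145, - strand): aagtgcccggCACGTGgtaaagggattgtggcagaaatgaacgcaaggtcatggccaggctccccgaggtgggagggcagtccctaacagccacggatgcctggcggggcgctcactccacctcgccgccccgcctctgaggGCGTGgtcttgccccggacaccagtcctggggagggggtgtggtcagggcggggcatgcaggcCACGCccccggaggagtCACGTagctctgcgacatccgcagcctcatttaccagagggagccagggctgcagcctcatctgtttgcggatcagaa
PGK1 (chrX:78103998-78104297, + strand): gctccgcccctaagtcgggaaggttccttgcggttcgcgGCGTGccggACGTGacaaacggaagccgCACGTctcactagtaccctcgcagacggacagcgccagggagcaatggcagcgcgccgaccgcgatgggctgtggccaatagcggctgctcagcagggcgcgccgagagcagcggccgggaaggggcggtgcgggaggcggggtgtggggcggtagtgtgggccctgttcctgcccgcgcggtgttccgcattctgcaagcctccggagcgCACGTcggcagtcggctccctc

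The PYGB and SLC2A1 windows held no ACGTG, and 3 and 1 matches to GCGTG. The ALDOC window held 3 matches to ACGTG, of which 2 come from 1 CACGTG at position -240 from the start site, and 2 to GCGTG. The PGK1 window held 3 and 1. Over the 38 genes of the list with RefSeq windows, 26 of 68 windows (38.2%) held ACGTG, beside 21.4% of all 35116 windows, and 44.1% and 36.5% held GCGTG. A match is a match of letters only, and windows of 1 gene can overlap. The 21 measured genes with ACGTG in at least 1 window had a median log2 ratio of 0.055 (range -0.66 to 0.61). The 14 without ACGTG had a median of 0.042 (range -2.98 to 0.77), so that the 2 sets overlapped widely. This split used ACGTG only, and genes without it, among them PYGB and SLC2A1, can hold GCGTG. Genes with and without either form of the core were not compared.

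Glucose enters the cell through transporters of the SLC2A family. SLC2A1, which encodes GLUT1, had a signal of 252 with the control vector and 442 after knock-down for 201250_s_at (log2 ratio 0.77, 1.70-fold higher). Its second probe set, 201249_at, was below the filter, with signals of 21.3 and 110 in the same direction. Of all probe sets with 1 symbol below the filter, 37.6% were at least 1.5-fold higher. Of the 2393 measured genes with mean signals from 200 to 500, as SLC2A1, 16.2% were past 1.5-fold in either direction. SLC2A3, which encodes the high affinity transporter GLUT3, had a signal of 1161 and 1477 (log2 ratio 0.30), but its 3 probe sets ranged from -0.06 to 0.30. SLC2A1 was the gene of the list with the highest log2 ratio among those above the filter, whereas the GLUT3 probe sets stayed within 1.5-fold.

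The first enzymes of glycolysis act on hexoses. Of these 8 genes, 5 had a log2 ratio below 0, as did 6012 of all 11794 measured genes. The 8 genes had a median of -0.15, and of -0.001 without probe sets ending in _s_at, _x_at or _a_at. The split of the glycolytic enzymes into hexose and triose steps was made after their values were seen. Hexokinases trap glucose as glucose 6-phosphate. HK1 had signals of 1700 with the control vector and 1282 after knock-down (log2 ratio -0.45). HK2, the inducible form, had signals of 892 and 956 (log2 ratio 0.05), with a second kept probe set at -0.37. GPI, which converts glucose 6-phosphate to fructose 6-phosphate, had signals of 1906 and 1666 (log2 ratio -0.24). Both HK1 and GPI were thus lower in the knock-down cells by less than 1.5-fold, each by its single probe set.

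Phosphofructokinase commits the sugar to glycolysis and is built from 3 kinds of subunit. PFKM, the muscle subunit, had a signal of 1554 with the control vector and 1015 after knock-down for its only probe set 210976_s_at (log2 ratio -0.66, 1.58-fold lower). PFKL, the liver subunit, had signals of 856 and 697 (log2 ratio -0.34), with its second probe set at 0.03. PFKP, the platelet subunit, was nearly equal with 6464 and 6410 (log2 ratio -0.06). A second kept PFKP probe set, 240202_x_at, had lower signals of 223 and 142 (log2 ratio -0.70), about as low as PFKM. The 2 PFKP probe sets thus disagreed, and whether PFKM and PFKP differed depended on the probe set. PFKM was past 1.5-fold only by a small margin. After quantile normalization its log2 ratio was -0.578 and with a loess curve subtracted -0.581, both short of the 0.585 that corresponds to 1.5-fold.

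Aldolases split fructose 1,6-bisphosphate into trioses. ALDOC had a signal of 150 with the control vector and 235 after knock-down (log2 ratio 0.60, 1.52-fold higher). ALDOA, the main form in most tissues, had signals of 4187 and 4864 (log2 ratio 0.17), with all 3 probe sets between 0.13 and 0.47. Both aldolases were thus higher in the knock-down cells, ALDOC only just past 1.5-fold and from a low signal. Of the 2099 measured genes with mean signals under 200, as ALDOC, 28.8% were past 1.5-fold in either direction and the median log2 ratio was 0.235. With the offset of 64 the log2 ratio of ALDOC was 0.444.

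The enzymes that act on trioses, down to lactate, had slightly higher signals in the knock-down cells. Of these 9 genes, 8 had a log2 ratio above 0, none differed by 1.5-fold and the median was 0.081. Of all 11794 measured genes, 5782 lay above 0, as did 2088 of the 5167 with a mean signal of at least 1000. The 447 measured genes with a mean signal of at least 8000 had a median of 0.080. The group of triose enzymes, too, was formed after the values were seen. Without probe sets ending in _s_at, _x_at or _a_at its median was -0.118. GAPDH, which oxidizes glyceraldehyde 3-phosphate, had signals of 15042 and 18585 (log2 ratio 0.26), with all 3 probe sets between 0.19 and 0.26. TPI1, which interconverts the trioses, had signals of 7787 and 9967 (log2 ratio 0.31), but its other 2 probe sets were below 0. ENO1, the main enolase, had signals of 11470 and 14104 (log2 ratio 0.25). The neuronal enolase ENO2 was the exception of this group, with signals of 8025 and 7628 (log2 ratio -0.12).

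LDHA, which turns pyruvate into lactate, had signals of 9655 with the control vector and 11911 after knock-down (log2 ratio 0.26). LDHB, its sister subunit, had signals of 17781 and 19403 (log2 ratio 0.08, second probe set 0.34). PGK1 had signals of 13362 and 14350 (log2 ratio 0.06), PGAM1 of 11041 and 11837 (0.05) and PKM, which makes pyruvate, of 8417 and 8866 (0.03). These values lie close to those of other genes with high signals. The 447 measured genes with a mean signal of at least 8000, among them 9 of the list, had a median log2 ratio of 0.080 and an SD of 0.179, and 0.224% of them were past 1.5-fold. The array's own GAPDH control probe sets behaved alike, with signals of 16627 and 20497 at the 3' end and a ratio of 3' to 5' signal of 0.948 and 1.04.

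**Figure D2:**
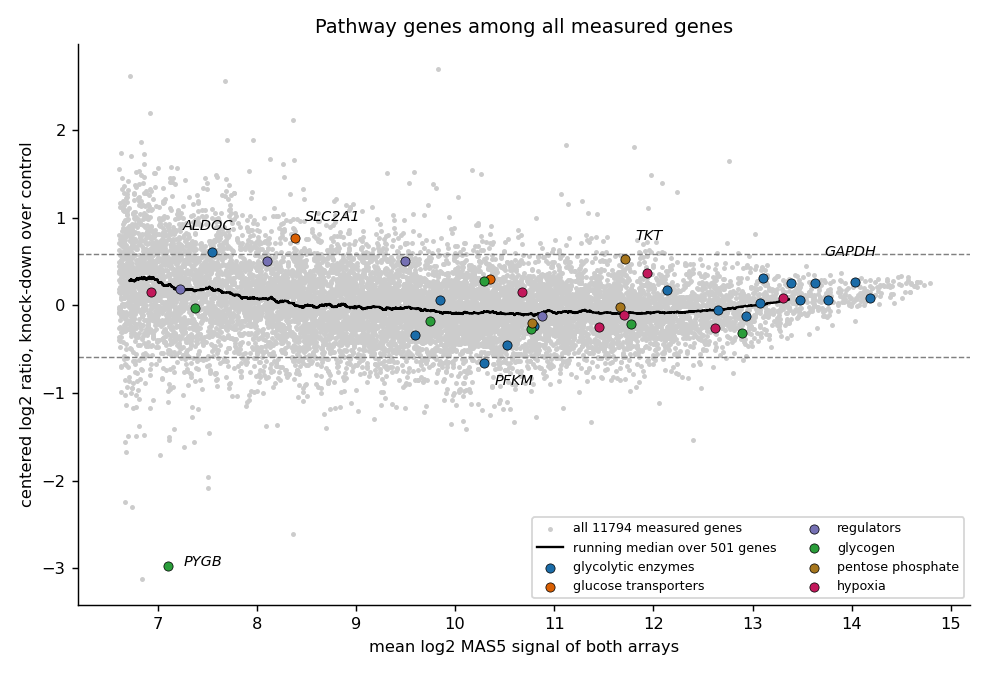
Mean log2 MAS5 signal (horizontal) and centered log2 ratio (vertical, knock-down over control), with 1 grey point per measured gene, the genes of the list in color (40 genes) and dashed lines at 1.5-fold. PYGB stands far below the other genes of the list, and the glycolytic enzymes at the right follow the running median (black), which lies above 0 for the highest signals.

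Regulators of glycolysis were higher in 3 of 4 cases, by less than 1.5-fold. Of all 11794 measured genes, 5782 lay above 0. The PFKFB enzymes set the level of fructose 2,6-bisphosphate, an activator of phosphofructokinase. PFKFB3 had a signal of 596 with the control vector and 871 after knock-down (log2 ratio 0.50, 1.42-fold). PFKFB4 had signals of 227 and 331 (log2 ratio 0.50), and its second probe set, at signals of 20.7 and 168, was below the filter. PFKFB2 had signals of 138 and 162 (log2 ratio 0.19). PDK1, the kinase that shuts off pyruvate dehydrogenase, had signals of 1927 and 1823 (log2 ratio -0.13), with its other 2 probe sets above 0. The PFKFB genes were thus all above 0. Measured genes with mean signals from 200 to 500, as PFKFB4, had a median log2 ratio of 0.042 and an SD of 0.435. Those from 500 to 1000, as PFKFB3, had a median of -0.045 and an SD of 0.357. PFKFB2 lay below the median of 0.235 over the measured genes with mean signals under 200. After quantile normalization its log2 ratio was 0.046. The direction of PDK1 depended on the probe set.

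Glycogen genes had log2 ratios below 0 in 6 of 7 cases, and only PYGB was past 1.5-fold. Of all 11794 measured genes, 6012 lay below 0, as did 3079 of the 5167 with a mean signal of at least 1000. The median of the glycogen genes was -0.22. UGP2, which makes UDP-glucose for glycogen synthesis, had signals of 8361 and 6939 (log2 ratio -0.31), with a weaker probe set at 0.21. The branching enzyme GBE1 had signals of 3710 and 3297 (log2 ratio -0.22) and the muscle form of glycogen synthase, GYS1, signals of 898 and 818 (-0.18). The phosphoglucomutase PGM1 links glycogen to glycolysis, and here PGM1 and its relative PGM2 differed in direction. PGM1 had signals of 1126 with the control vector and 1404 after knock-down (log2 ratio 0.27). PGM2 had signals of 1884 and 1616 (log2 ratio -0.27), with all 3 probe sets between -0.40 and -0.27. The log2 ratios of the glycogen genes other than PYGB were all smaller in size than the SD of 0.332 between probe sets of a gene. PYGB has only 1 kept probe set, so that this spread was not measured for it.

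The pentose phosphate genes showed no common direction. TKT, a transketolase of the non-oxidative branch, had a signal of 2763 with the control vector and 4108 after knock-down (log2 ratio 0.53, 1.44-fold), but its other 2 probe sets had log2 ratios of 0.14 and 0.22. PGD, an NADPH-producing enzyme of the oxidative branch, had signals of 1853 and 1662 (log2 ratio -0.20). TALDO1, the transaldolase, was nearly equal with 3219 and 3265 (log2 ratio -0.02). TKT and PFKFB3 were the genes nearest below the 1.5-fold size, and ALDOC and PFKM those nearest above it. TKT passed it after quantile normalization (0.608), with a loess curve subtracted (0.601) and with a filter at the 75th percentile (0.586).

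**Figure D3:**
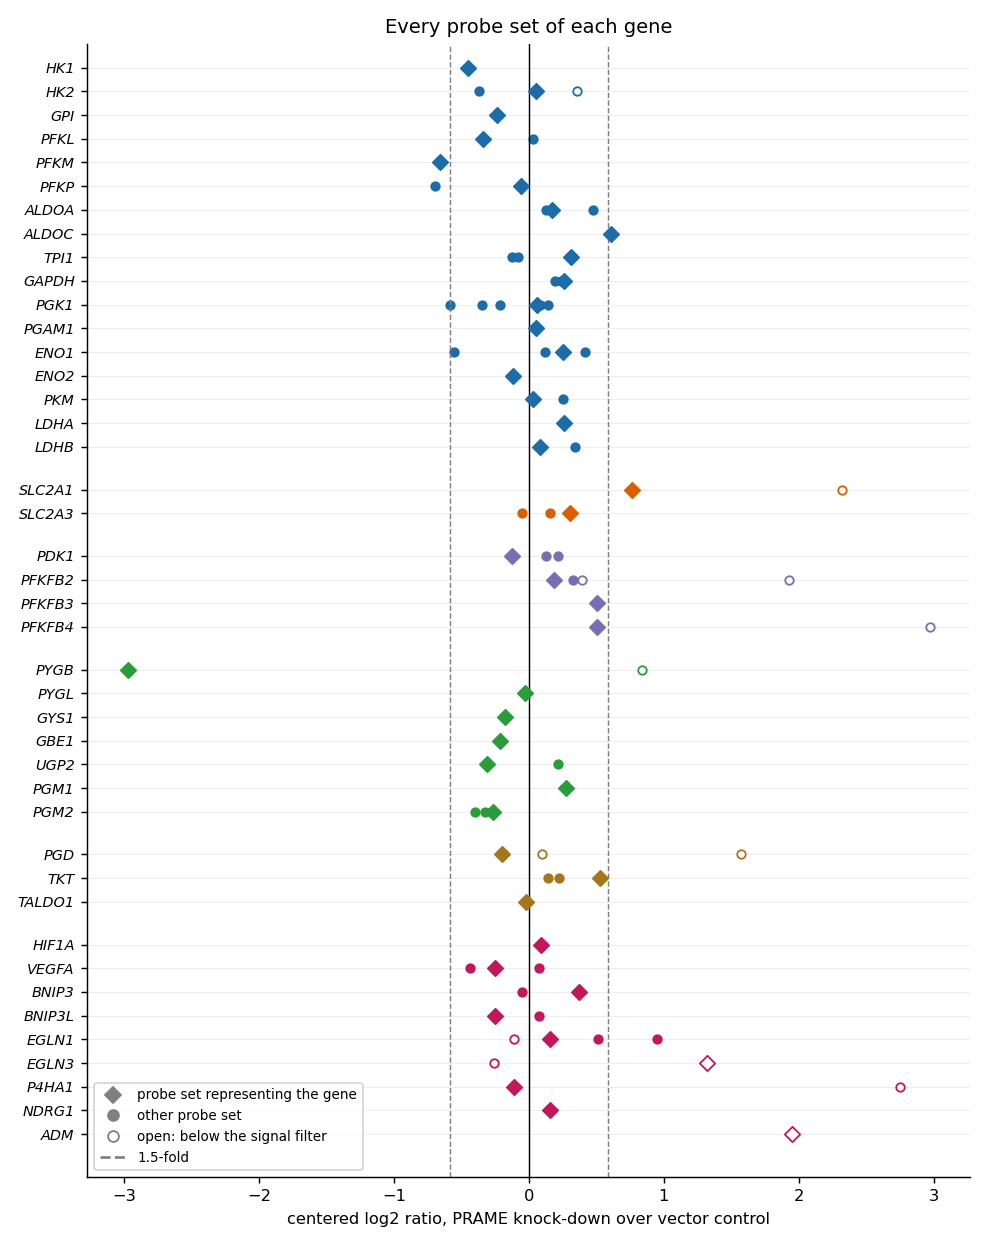
Centered log2 ratio (knock-down over control) of all 89 probe sets of the 42 genes, 1 array per condition. Diamonds represent the gene, open symbols are below the signal filter and dashed lines stand at 1.5-fold. Filled symbols past 1.5-fold are seen for PYGB, PFKM, PFKP and PGK1 on the left and for SLC2A1, ALDOC and EGLN1 on the right. The open symbols past 1.5-fold all lie on the right, as do 37.6% of all probe sets with 1 symbol below the filter.

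Genes of the hypoxia response showed no common direction. Of 7 such genes above the filter, 3 lay below 0 and 4 above 0, none was past 1.5-fold and the median was 0.085. HIF1A, the subunit of HIF-1 that is controlled mainly by protein stability, had signals of 9710 with the control vector and 10629 after knock-down (log2 ratio 0.09). VEGFA, which drives vessel growth, had signals of 3006 and 2610 (log2 ratio -0.25), with 4 probe sets from -0.44 to 0.08. BNIP3, a mitophagy receptor, had signals of 3392 and 4529 (log2 ratio 0.37), and its relative BNIP3L had 6781 and 5862 (-0.26). The second probe set of each lay near 0 on the other side, at -0.05 and 0.08. The collagen hydroxylase subunit P4HA1 had signals of 3404 and 3258 (log2 ratio -0.11) and NDRG1, a stress-induced gene, signals of 114 and 131 (0.15).

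The prolyl hydroxylases of the EGLN family mark HIF subunits for degradation. EGLN1 had a signal of 1520 with the control vector and 1748 after knock-down for 223046_at (log2 ratio 0.16). Its weaker kept probe sets had higher values, with log2 ratios of 0.51 for 221497_x_at and 0.95 for 224314_s_at, the latter with signals of 151 and 300. EGLN3 had no probe set above the filter, with signals of 48.0 and 124 for the stronger one and 9.62 and 8.31 for the other. Adrenomedullin (ADM), a vasodilator peptide induced by hypoxia, had signals of 18.8 and 74.8 and was also below the filter.

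Signals this low were often higher in the knock-down cells. Of 7981 genes without a kept probe set, 39.9% were at least 1.5-fold higher, as were EGLN3 and ADM. Of these 7981 genes, 1186 were at least 1.5-fold lower. Of all 18712 probe sets below the filter with 1 symbol, 37.6% were at least 1.5-fold higher, as were 8 of 13 from the list. None of the 13 was 1.5-fold lower, and the share of all such probe sets that were lower was not counted. Above the filter, 4 of 76 probe sets of the list were at least 1.5-fold lower and 3 higher, beside 6.54% and 7.38% of all kept probe sets with 1 symbol. Besides those of the genes named above, the fourth lower one was the PGK1 probe set 1558365_at, with signals of 328 and 225. The other 5 PGK1 probe sets ranged from -0.35 to 0.14. Of the 20 genes with several kept probe sets, 11 had probe sets on both sides of 0.

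Further genes of the same pathways, 113 in all, were mostly within 1.5-fold as well. Of the 77 measured, 47 had a log2 ratio below 0. Of all 11794 measured genes 6012 did, and of the 5167 with a mean signal of at least 1000, 3079. Among the 77, 1 was at least 1.5-fold lower and 5 higher (5.42% and 7.54% of all measured genes). DLAT, a subunit of pyruvate dehydrogenase, had signals of 1035 and 675 (log2 ratio -0.66), but its other 2 probe sets were above 0 at 0.18 and 0.09. PDK2, a kinase of the same complex, had signals of 220 and 342 (log2 ratio 0.59, second probe set -0.08). Neither difference was seen in all probe sets of the gene.

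The sugar transporter SLC2A6 had signals of 624 with the control vector and 1055 after knock-down for its only probe set (log2 ratio 0.71). Heme oxygenase HMOX1, which degrades heme, had signals of 104 and 217 (log2 ratio 1.01). The collagen lysyl hydroxylase PLOD2 had signals of 154 and 303 (log2 ratio 0.94), with its second probe set at 0.09. PPP1R3F, which encodes a glycogen-targeting subunit of a protein phosphatase, had signals of 98.5 and 154 (log2 ratio 0.60). HMOX1 and PPP1R3F had mean signals under 200, where 28.8% of measured genes were past 1.5-fold in either direction and the median log2 ratio was 0.235. PLOD2 had a mean signal from 200 to 500, where 16.2% were past 1.5-fold. Of SLC2A6, HMOX1, PLOD2 and PPP1R3F, only SLC2A6 had signals well above the filter on both arrays. The medians of the other genes were -0.079 for glycolysis (11 genes), -0.138 for the entry of pyruvate into mitochondria (12 genes), -0.007 for glycogen (16 genes), -0.210 for the pentose phosphate pathway (7 genes) and -0.065 for hypoxia (31 genes).

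**Figure D4:**
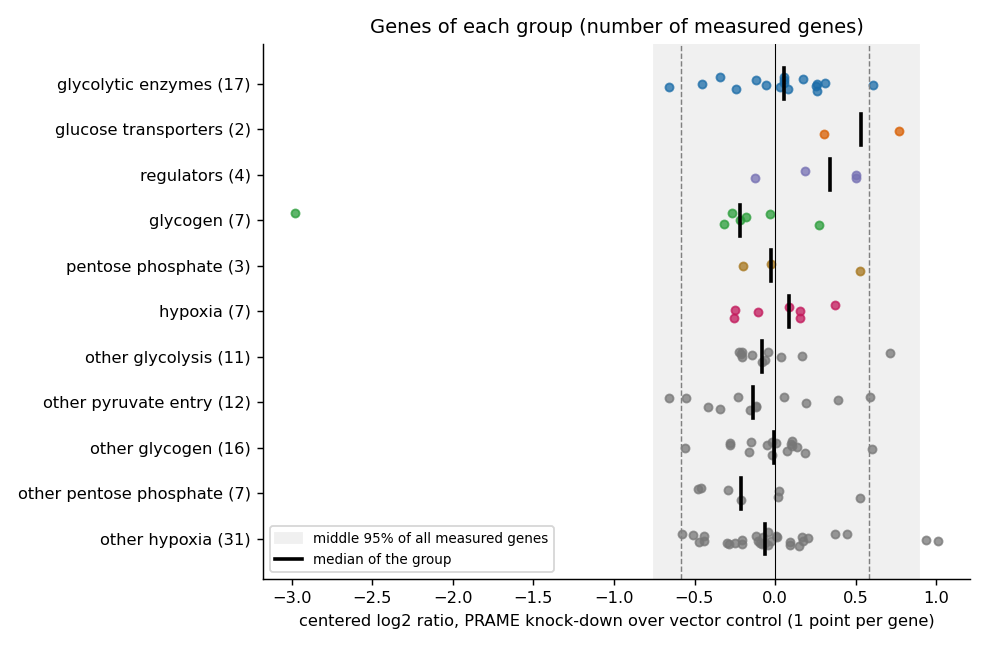
Centered log2 ratio (knock-down over control) of the measured genes of each group of the list (colors) and of the other genes of the same pathways (grey), 1 point per gene with the median as a black bar and dashed lines at 1.5-fold. Only PYGB lies far outside the grey band, which holds the middle 95% of all measured genes, and HMOX1 and PLOD2 lie just above it.

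The 4 genes past 1.5-fold did not depend on the processing alike. PYGB and SLC2A1 were past it in the same direction in 6 of the 8 alternatives. They did not pass the filter at the 75th percentile, nor the usual filter when probe sets ending in _s_at, _x_at or _a_at were left out, where the weak PYGB probe set had the opposite sign. ALDOC fell short of 1.5-fold after quantile normalization (0.505), with a loess curve subtracted (0.501), with the offset of 64 (0.444) and without a filter (0.510).

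**Figure D5:**
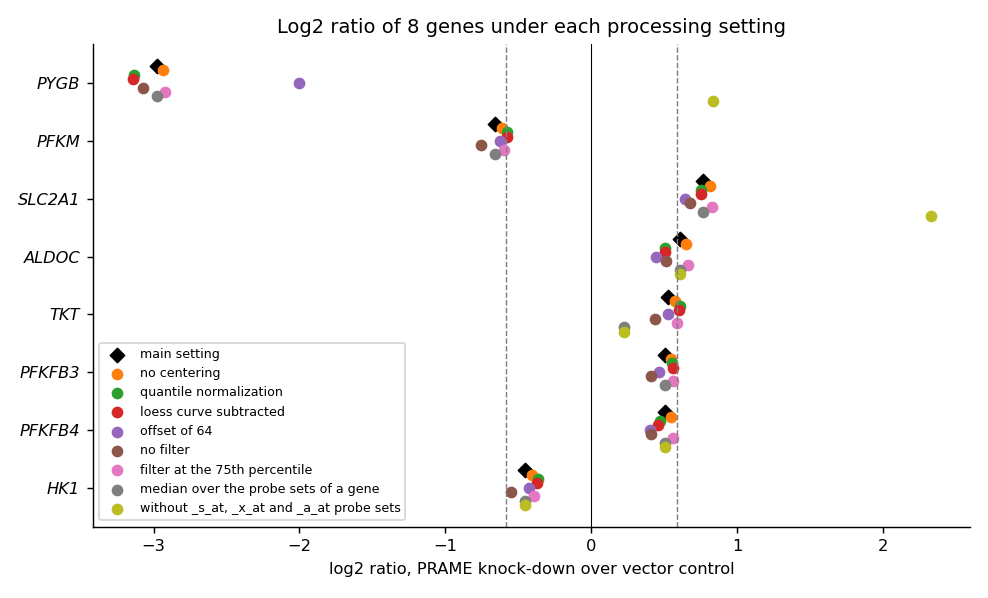
Log2 ratio of 8 genes under the main setting (black diamonds) and 8 alternatives (colored points), with dashed lines at 1.5-fold. ALDOC (0.444 to 0.663) and TKT (0.221 to 0.608) fall on both sides of 1.5-fold, and the single PYGB point to the right of 0 (0.836) is its weak probe set. Points are drawn also where a gene is below the filter of a setting.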

How the data were processed

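Total RNA of L-428 cells with the control vector and with the PRAME knock-down vector was hybridized to 1 Affymetrix HG_U133PLUS2.0 array each. The deposited values are intensities (MAS5 signals, not log-transformed) that the authors computed in Affymetrix Expression Console 1.1, per the labels. Both arrays had a trimmed mean of 500.1, so that they were scaled but not centered per gene, and medians of 91.9 and 110. Detection calls were not used here, and precision is limited by the number of arrays.

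After removal of 62 control probe sets, 41091 had 1 symbol in the platform annotation, 1801 had more than 1 and 11721 were unnamed, and symbols were updated by gene ID through the RefSeq table of GRCh38.p14 (41037 found), which served for names and gene order. Signals were log2-transformed with no offset, filtered at the median mean signal and centered. Only the calculation of log2 ratios was tested on simulated data, with known folds and less noise than between the 2 arrays. No test across samples was possible with 1 array per condition.

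The genes and lists were chosen with earlier results of these data known, and the split of the glycolytic enzymes into hexose and triose steps was made after their values were seen. The rule for named genes took those past 1.5-fold or with a kept probe set past it, the 2 nearest to it on each side, HIF1A, VEGFA, GAPDH, the lowest and highest of each group, and other pathway genes past 1.5-fold. The remaining genes of the list and the neighbours of PYGB were added after their values were seen. Promoter windows came from RefSeq, and SLC2A3, SLC16A1, PFKFB2, VEGFA, BNIP3L and NDRG1 had none in the table used. The 8 alternatives changed the filter (none, or the 75th percentile), the scaling (quantile normalization, a subtracted loess curve of span 0.4, or no centering), the offset (64) and the probe sets (median of the kept ones, or leaving out IDs that end in _s_at, _x_at or _a_at). Versions were pandas 2.3.3, numpy 2.4.6, matplotlib 3.10.9 and statsmodels 0.14.6 under Python 3.11.15.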

Additional observations from a re-analysis of the deposited data

How the results depend on the processing

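The log2 ratios of 26 of the 42 genes kept one sign under all alternatives that gave a value. PYGB was at -2.92 or lower in 6 alternatives, in 1 of them below the filter (75th percentile), and at -2.005 with an offset of 64. Without probe sets ending in _s_at, _x_at or _a_at, its remaining weak probe set gave 0.836, and those of TPI1 (-0.127), ENO1 (-0.553), UGP2 (0.215) and P4HA1 (2.751) also turned direction. SLC2A1 was at 0.640 to 0.811 in the 6 alternatives where it passed the filter. PFKM and ALDOC fell short of 1.5-fold, and TKT passed it, in the settings named in the report. Genes of the list lower by 1.5-fold numbered 2. There was 1 after quantile normalization, after loess and with the filter at the 75th percentile, and 0 without the named endings (22 genes measured). The 2 higher genes became 1 with the offset of 64, with the 75th percentile filter and without the endings. At 2-fold, the 1 lower gene was 0 with the 75th percentile filter, which removes PYGB, and without the endings, and 2 genes were higher without a filter, EGLN3 and ADM. Of the other pathway genes, 1 was lower by 1.5-fold, which became 7 without a filter, 3 with the median over probe sets and 2 without the endings. The 5 higher ones became 3 after quantile normalization, after loess, with the offset and without the endings, 14 without a filter and 1 with the 75th percentile filter. At 2-fold, 1 lower and 5 higher genes were found without a filter, and the 1 higher gene became 0 after quantile normalization, after loess, with the offset and with the 75th percentile filter. The median of the glycolytic enzymes turned from 0.055 to -0.079 with the median over probe sets and to -0.057 without the endings, which also moved the triose steps to -0.118, the hexose steps to -0.001 and the regulators to 0.185. The hypoxia median was -0.027 after quantile normalization and -0.034 after loess. That of the transporters was 0.361 with the 75th percentile filter, which leaves only SLC2A3. The glycogen median stayed between -0.310 and -0.123. Where no other cause is named, the cause was not tested. No paired analysis was possible because there is 1 array per condition. Without replicates no result could be set against the spread between cultures, and signals near or below 97.7 give no reliable size.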

Other observations

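Probe sets that match more than one gene were not used above. For the pair SLC2A3 and SLC2A14, 216236_s_at had signals of 722 with the control vector and 926 after knock-down (log2 ratio 0.31) and 222088_s_at of 745 and 948 (log2 ratio 0.30), which is the value of the strongest SLC2A3 probe set.

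Of 10 pairs of related genes compared, 4 had log2 ratios on different sides of 0 by their strongest probe sets. These were HK1 (-0.45) and HK2 (0.05), ENO2 (-0.12) and ENO1 (0.25), PGM2 (-0.27) and PGM1 (0.27) and the mitophagy receptors BNIP3L (-0.26) and BNIP3 (0.37). Other kept probe sets of HK2, ENO1, BNIP3 and BNIP3L had the opposite sign. For ALDOA and ALDOC, LDHA and LDHB, SLC2A1 and SLC2A3 both were above 0. Apart from PYGB and PYGL, the widest gaps were 0.63 for BNIP3 minus BNIP3L and -0.60 for PFKM minus PFKP, each below 2-fold and without a replicate, and the second PFKP probe set was as low as PFKM.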
